A study of Mus musculus with 16 samples.

Results

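The fibroblast growth factor (FGF) genes, their receptors and the Sprouty and Spred inhibitors were followed in head tissue of mouse embryos at embryonic day 8.5. The members were all gene symbols in the count files of the form Fgf, Fgfr, Spry or Spred followed by a number: 33 of the 24421 genes listed, made up of 18 secreted ligands, 4 intracellular FGFs, 4 receptors, 4 Sprouty genes and 3 Spred genes. Of these, 25 had at least 10 counts in at least 4 libraries and were tested. The embryos were wild type or homozygous Ift88-null, and Ift88 encodes a carrier of intraflagellar transport that cells need to build a primary cilium. Mice ate food with 2 ppm (moderate diet) or 10 ppm (enriched diet) folic acid over 3 generations. The 4 groups were therefore moderate diet wild type, moderate diet mutants, enriched diet wild type and enriched diet mutants, with 4 libraries each, all from the third generation. The promoter or construct of the null allele, and the litter of each embryo, are not given in the sources used here. Therefore some libraries may come from littermates and may not be independent. The p-values measure only the spread among these libraries, which may be partly technical.

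Secreted FGFs bind receptor tyrosine kinases together with heparan sulfate, or with a Klotho protein in the case of the endocrine FGFs, and activate the Ras, Raf, MEK and ERK cascade. ERK signalling switches on Etv and Dusp genes as well as Sprouty and Spred genes, whose products damp the same cascade. In the early head, Fgf8 and its relatives are secreted by the boundary between midbrain and hindbrain, the anterior neural ridge and the pharyngeal region, and Fgf10 by mesenchyme and pharyngeal mesoderm.

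Mutants on both diets had higher levels of the ligands Fgf15, Fgf8 and Fgf23 and of the intracellular factor Fgf11, and a lower level of Fgf10. In moderate diet libraries 5 of the 25 tested members passed the threshold (Benjamini-Hochberg adjusted p under 0.05 over 14514 genes, from the quasi-likelihood test of edgeR), where 7.62% of all tested genes passed. Of these 5, 4 were higher (4.79% of all genes) and 1 was lower (2.83%) in mutants. With the enriched diet 11 of 25 passed against 31.2% of all tested genes, 10 of them higher (14.4% of all genes) and 1 lower (16.8%). These 11 included the 5 of the moderate diet. With the genotype effect averaged over both diets 17 of 25 passed against 35.8% of all tested genes, 15 of them higher (17.4% of all genes) and 2 lower (18.5%). The median log2 fold change of the 25 members was 0.29 on the moderate diet and 0.34 on the enriched diet, beside -0.0098 and -0.0054 over all tested genes. Log2 fold changes were above 0 in 19 and 20 of the 25 members, and in 48.1% and 49.4% of all tested genes. The libraries of the genotypes did not overlap in 7 of the 25 members on the moderate diet (15.6% of all tested genes) and in 11 on the enriched diet (23.7%). The counts of higher members and of members without overlap all include Fgf23. It reached 10 counts only in 7 mutant libraries, so it was tested because of the group in which it is high. No member passed in any comparison between the diets.

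The promoter windows of Fgf23 and Fgf11, the members with the largest rises, and of Fgf10, the member that fell on both diets, are shown as the sequence context of the results that follow. Each is the 250 bases before the start site in RefSeq (GRCm38.p6, the reference behind mm10), 5′ to 3′ on the gene's own strand, with GCGTG in capitals. The Fgf23 window is chr6:127072652-127072901 on the plus strand, the Fgf11 window chr11:69802281-69802530 on the minus strand and the Fgf10 window chr13:118714449-118714698 on the plus strand.
Fgf23: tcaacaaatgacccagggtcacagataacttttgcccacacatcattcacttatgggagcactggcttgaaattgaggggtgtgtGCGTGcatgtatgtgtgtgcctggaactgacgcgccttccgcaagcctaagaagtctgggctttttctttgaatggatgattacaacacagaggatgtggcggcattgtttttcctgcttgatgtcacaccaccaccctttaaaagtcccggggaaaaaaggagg
Fgf11: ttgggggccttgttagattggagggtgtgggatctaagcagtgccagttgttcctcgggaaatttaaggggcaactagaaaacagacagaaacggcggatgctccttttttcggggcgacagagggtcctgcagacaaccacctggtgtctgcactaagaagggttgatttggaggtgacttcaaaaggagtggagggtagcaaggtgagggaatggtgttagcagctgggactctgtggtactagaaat
Fgf10: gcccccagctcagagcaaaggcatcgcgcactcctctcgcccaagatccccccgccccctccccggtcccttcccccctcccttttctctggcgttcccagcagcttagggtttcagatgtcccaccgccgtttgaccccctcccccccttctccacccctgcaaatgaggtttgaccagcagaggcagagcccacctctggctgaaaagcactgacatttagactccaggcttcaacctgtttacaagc
The strings ACGTG and GCGTG, the core letters read by hypoxia-inducible factors, GACCACCCA, read by Gli factors, and CCGGAAGT, read by ETS factors, were searched on both strands. The string CACGTG holds ACGTG on both strands. Fgf23 held 1 GCGTG, 165 bases before its start, and the windows of Fgf11 and Fgf10 held none of the 4 strings. Of the 24 members with a window, 13 held ACGTG or GCGTG, as did 38.6% of 27025 RefSeq promoter windows. None held GACCACCCA, found in 0.211% of all windows, or CCGGAAGT, found in 2.93%. These matches describe letters only. The windows differ in base composition: G and C made up 61.2% of the Fgf10 window, 51.2% of the Fgf11 window and 48.4% of the Fgf23 window. In the GENCODE vM21 annotation the Fgf10 gene begins 44908 bases before the RefSeq start used here, and the Fgf11 gene begins 423 bases after it.

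Library totals over all genes lay between 19249433 and 44267434 counts. Ift88 lay at 9.3 to 20.9 CPM (counts-per-million of the scaled total) in the 8 wild type libraries and at 2.01 to 8.61 CPM in the 8 mutants, with no overlap, although moderate diet wild type replicate 2 held 9.3 CPM and the other 7 wild type libraries at least 17.9 CPM. Sex-linked counts went against the labelled sex in 3 libraries: replicate 2 of moderate diet wild type, and replicates 1 and 2 of the mutants on that diet. Head markers were present: group means lay at 151 to 170.0 CPM for Otx2 of forebrain and midbrain and at 75.3 to 90.3 CPM for Twist1 of head mesenchyme. Markers of the level near the ear were scarce, with group means of at most 0.217 CPM for Hoxb1 of the hindbrain and 0.0537 CPM for Oc90 of the otic vesicle. The libraries are of whole tissue, so fewer cells of a type and less RNA per cell cannot be told apart. The library kit keeps no strand information, and in the GENCODE annotation antisense genes cover 25.7% of the exonic bases of Fgf15, 24.4% of those of Spry1 and 13.9% of those of Fgfr3, so some of their reads cannot be assigned with certainty.

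Per kilobase of exon, the inhibitors and 1 receptor stood at the top of the family in moderate diet wild type. Spred1 had the highest level at 29.9 ± 2.19 (SD, n = 4) CPM per kilobase of exon (RPKM), followed by Spry2 at 24.2 ± 1.15 and Fgfr1 at 21.7 ± 0.78 RPKM, and the ranges of these 3 genes did not overlap. A run of 7 genes came next whose neighbours overlapped in range: Spry1 (15.8 RPKM), Fgf15 (13.3), Spred2 (13.1), Fgf8 (11.6), Fgfr2 (11.5), Fgf17 (10.5) and Fgf13 (9.43). Fgf15 was thus the secreted ligand with the highest mean level, although its range of 12.3 to 15.8 RPKM overlapped that of Fgf8 at 9.96 to 13.1 RPKM. Fgfr3 stood at 5.72 ± 1.02 RPKM, and its range was clear of Fgf13 and Spred3, its neighbours in rank. It overlapped that of Fgf18, as Fgfr3 fell to 4.75 RPKM and Fgf18 reached 5.06 RPKM. Spred3, Fgf18 and Spry4 had means between 2.99 and 4.26 RPKM. Fgf10 (1.46 RPKM), Fgf3 (1.32) and Fgf14 (0.999) overlapped in range. Fgf5, Fgf11, Fgf9, Fgf16 and Fgf12 lay between 0.305 and 0.475 RPKM, and Fgfr4, the receptor with the lowest level, at 0.113 RPKM.

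**Figure D1:**
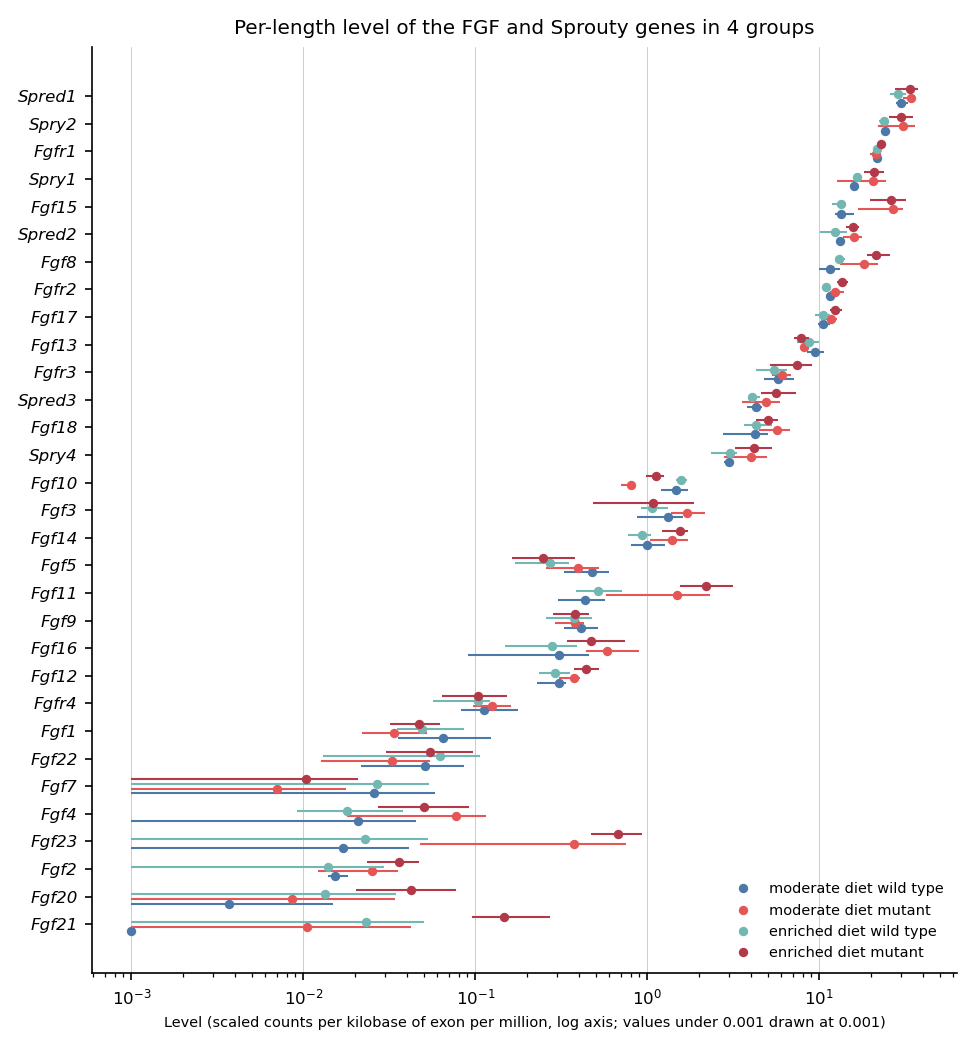
Level per kilobase of exon on a log axis for the 31 members with a length and a count above 0, in order of their mean in moderate diet wild type. Points are group means and bars run from the lowest to the highest of 4 libraries; Fgf23 and Fgf11 are the genes whose mutant points lie farthest to the right of their wild type points among those tested.

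Among the ligands, Fgf15 had the clearest separation of the genotypes. Fgf15, on chromosome 7 from 144896531 to 144900953 of mm10, is the mouse counterpart of human FGF19 and is made in the early neural tube. In replicates 1 to 4 it reached 37.5, 48.2, 38.2 and 38.4 CPM in moderate diet wild type, and 91.1, 93.8, 51.2 and 90.9 CPM in moderate diet mutants. With the enriched diet the values were 41.6, 36.1, 42.7 and 43.0 CPM in wild type and 98.1, 60.6, 81.0 and 77.8 CPM in mutants. Every mutant of either diet exceeded every wild type library, a separation found in 2.51% of all tested genes in this direction and in no other member. The lowest mutant was moderate diet replicate 3, followed by enriched diet replicate 2. The log2 fold change was 1.01 ± 0.17 (SE; edgeR adjusted p = 0.00192) with the moderate and 0.95 ± 0.18 (adjusted p = 0.00138) with the enriched diet, about 2.02-fold and 1.93-fold.

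Fgf8, on chromosome 19 from 45736798 to 45742915, is the organiser ligand of the boundary between midbrain and hindbrain. It stood at 13.4, 15.7, 17.6 and 15.7 CPM in moderate diet wild type and at 26, 25.1, 17.7 and 29.5 CPM in moderate diet mutants. In enriched diet wild type it stood at 19.1, 17, 16.7 and 17.6 CPM and in enriched diet mutants at 34.7, 27.3, 27.5 and 25.5 CPM. Within each diet the mutants lay above the wild type libraries, on the moderate diet by the narrowest margin, where replicate 3 of the mutants held 17.7 CPM and the highest wild type library 17.6 CPM. Fgf8 was 1.57-fold higher in mutants on the moderate diet (log2 fold change 0.65 ± 0.14, adjusted p = 0.00955) and 1.65-fold higher on the enriched diet (0.72 ± 0.14, adjusted p = 0.00197). The nearest genes on either side, Fbxw4 and Npm3, did not pass on either diet (log2 fold changes -0.391 to 0.086).

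The other ligands of the Fgf8 subfamily had smaller log2 fold changes. Fgf17, a midbrain-hindbrain ligand close to Fgf8 in sequence, had group means of 17.7 ± 1.34 and 19.7 ± 1.99 CPM in wild type and mutants on the moderate diet and 17.8 ± 1.7 and 20.9 ± 1.56 CPM on the enriched diet (SD, n = 4). Its log2 fold change passed only with both diets together (0.21 ± 0.07, adjusted p = 0.0308; 0.26 ± 0.10, adjusted p = 0.0639, on the enriched diet). In replicates 1 to 4 it held 16.5, 19.6, 17.5 and 17 CPM in moderate diet wild type, 21.2, 19.1, 17.2 and 21.4 CPM in moderate diet mutants, 18.7, 16, 19.7 and 16.8 CPM in enriched diet wild type and 22.9, 19.6, 19.8 and 21.5 CPM in enriched diet mutants. These ranges overlapped on both diets, and the averaged call was lost in 6 of 26 alternative analyses (adjusted p up to 0.0829), 5 of which leave out 1 library. Fgf18 had group means of 5.05, 6.69, 5.1 and 5.96 CPM in the same order and did not pass in any comparison (average log2 fold change 0.34, 95% interval 0.07 to 0.60, adjusted p = 0.0611). Fgf15, Fgf8, Fgf17, Fgf10 and Fgf18 together made up 91.9 to 94.6% of all counts on secreted ligands, as group means.

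**Figure D2:**
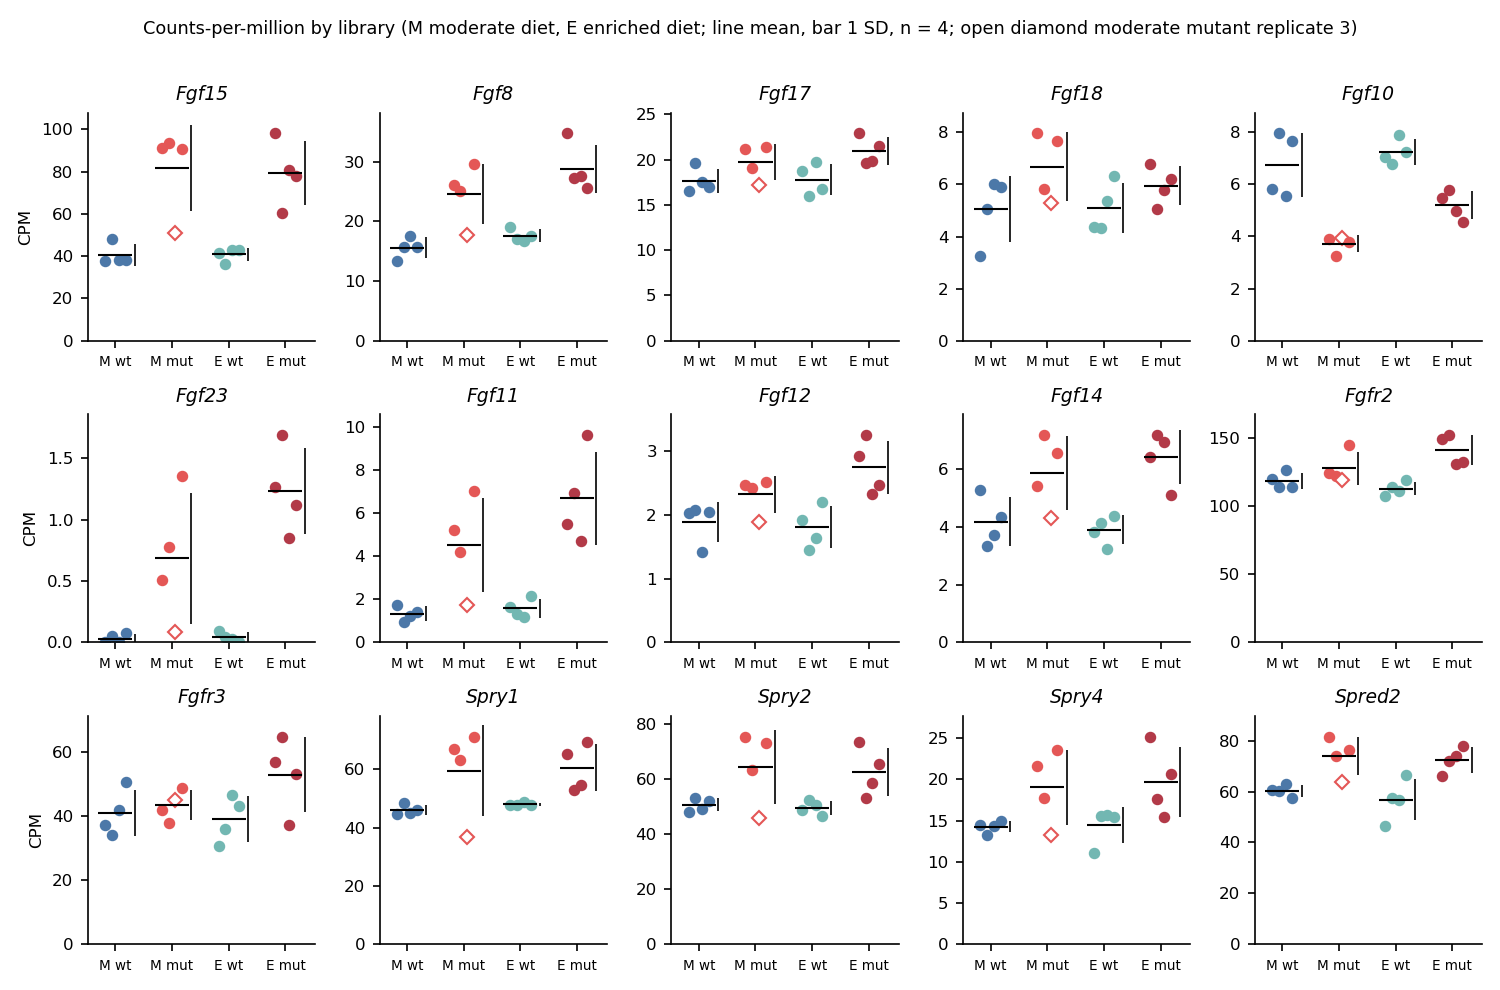
CPM in each library for 15 members (vertical axes start at 0 and differ between panels); horizontal lines are group means, vertical bars 1 SD of 4 libraries, and the open diamond is moderate diet mutant replicate 3. The diamond sits near the wild type points in most panels where the other mutants are high, with 51.2 CPM against 90.9 to 93.8 CPM for Fgf15, and lies with the other mutants for Fgf10.

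Of the endocrine FGFs, Fgf23 was nearly absent from wild type libraries. Fgf23, on chromosome 6 from 127072902 to 127081408, is a hormone that lowers blood phosphate in the adult. Its level was 0, 0.0484, 0 and 0.0746 CPM in moderate diet wild type and 0.512, 0.779, 0.0859 and 1.36 CPM in moderate diet mutants. It was 0.0958, 0.0402, 0.0292 and 0 CPM in enriched diet wild type and 1.27, 1.69, 0.848 and 1.12 CPM in enriched diet mutants. The libraries of the genotypes did not overlap within a diet, but moderate diet mutant replicate 3 fell inside the range of the enriched diet wild type. Summed over libraries, the mutants held 71 counts and the wild type 4 on the moderate diet, a ratio of 15.6 (exact 95% interval 5.84 to 58.9), and 144 and 4 on the enriched diet, a ratio of 35.1 (13.4 to 131). These intervals cover counting error only. The fitted log2 fold changes were 3.96 ± 0.86 (adjusted p = 0.00965) and 4.94 ± 0.80 (adjusted p = 0.000556). Only 7 mutant libraries reached 10 counts, so Fgf23 was tested because of the group in which it is high. The adjoining gene Tigar, 3707 bases away, had a log2 fold change of -0.356 (adjusted p = 0.151) with the moderate and -0.459 (adjusted p = 0.0303) with the enriched diet. Fgf6, 44714 bases away on the other side, had 0 counts in all libraries.

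Fgf21, the third endocrine FGF, a hormone of fasting, was below the filter. It had 15 counts in the 4 enriched diet mutants, between 2 and 6 in each library, and 3 counts in the other 12 libraries. This gene was looked at after its counts were seen and has no test. The co-receptors that endocrine FGFs use, Kl and Klb, had group means of at most 0.067 and 0.201 CPM and were not tested.

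Fgf10 was the only one of the 11 tested secreted ligands that passed the test in the lower direction. Fgf10, on chromosome 13 from 118669791 to 118792115, signals mainly through Fgfr2 and is made by mesenchyme and pharyngeal mesoderm. It lay at 5.81, 7.94, 5.53 and 7.66 CPM in moderate diet wild type and 3.89, 3.24, 3.92 and 3.80 CPM in moderate diet mutants. In enriched diet libraries it lay at 7.04, 6.75, 7.89 and 7.23 CPM in wild type and 5.48, 5.76, 4.98 and 4.54 CPM in mutants. Mutants lay below wild type within each diet, and replicate 3 of the moderate diet mutants was no exception here. Over both diets the highest enriched diet mutant exceeded the lowest moderate diet wild type library. The log2 fold change was -0.86 ± 0.14 (adjusted p = 0.00127) with the moderate and -0.49 ± 0.14 (adjusted p = 0.0148) with the enriched diet, and the second call was lost without enriched diet wild type replicate 3 or mutant replicate 4 (adjusted p up to 0.0627). Tbx1, a pharyngeal transcription factor, was also lower in mutants on both diets (log2 fold change -0.89 ± 0.24, adjusted p = 0.0347, and -1.04 ± 0.24, adjusted p = 0.00505). It was the only gene that passed of 5 head mesenchyme and branchial arch genes. Of these 5, 3 had a log2 fold change above 0 on the moderate diet and 2 on the enriched diet. The moderate diet call of Tbx1 was lost in 8 of 27 alternative analyses, and a link to Fgf10 was not tested.

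The remaining tested ligands gave no call on a single diet. Fgf16 had group means of 0.503 ± 0.261, 0.959 ± 0.352, 0.461 ± 0.169 and 0.771 ± 0.302 CPM in moderate diet wild type, moderate diet mutants, enriched diet wild type and enriched diet mutants. Its libraries held 0.624, 0.484, 0.756 and 0.149 CPM, then 0.752, 1.48, 0.888 and 0.72 CPM, then 0.431, 0.643, 0.526 and 0.244 CPM, then 0.657, 0.563, 1.22 and 0.644 CPM, in the same order of groups. The ranges overlap on both diets, and the averaged effect passed narrowly (log2 fold change 0.82 ± 0.31, adjusted p = 0.0479) and was lost in 13 of 25 alternative analyses. Fgf3, of the hindbrain and ear region, had group means of 3.08, 3.99, 2.47 and 2.51 CPM, and Fgf9 had 1.91, 1.77, 1.73 and 1.76 CPM. Fgf5 had group means of 1.19, 0.985, 0.675 and 0.618 CPM and Fgf1 had 0.355, 0.184, 0.268 and 0.258 CPM. For Fgf9 the 95% interval of the averaged log2 fold change was -0.36 to 0.27, and for Fgf1, which passed the filter with exactly 4 libraries, it was -1.12 to 0.21.

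The other members below the filter were Fgf2, Fgf4, Fgf6, Fgf7, Fgf20, Fgf22 and Spry3. Their highest count in any library was 13 for Fgf4, 7 for Fgf2 and for Fgf22, 6 for Fgf7 and 3 for Fgf20. Fgf4, which lies between Fgf3 (2930 bases away) and Fgf15 (31287 bases away) on chromosome 7, had 7 counts in moderate diet wild type, 26 in moderate diet mutants, 6 in enriched diet wild type and 21 in enriched diet mutants. Fgf7 had 7, 3, 11 and 4 counts in the same order of groups. Fgf6 and Spry3 had 0 of 444580504 counts in all libraries together, which allows up to 3 counts, or 0.00675 CPM. Spry3 was the member without a match in the GENCODE annotation, so its limit holds only for reads counted under that symbol.

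The intracellular FGFs do not bind FGF receptors as secreted ligands do and are known as partners of sodium channels. In enriched diet mutants 3 of 4 passed as higher, beside 14.4% of all tested genes. In moderate diet mutants 1 of 4 did, beside 4.79% of all tested genes. Fgf11, on chromosome 11 from 69796068 to 69801857, held 1.73, 0.92, 1.23 and 1.42 CPM in moderate diet wild type and 5.19, 4.18, 1.75 and 7.00 CPM in moderate diet mutants. Libraries of the enriched diet held 1.63, 1.33, 1.17 and 2.17 CPM in wild type and 5.50, 6.92, 4.72 and 9.62 CPM in mutants. Apart from moderate diet mutant replicate 3, every mutant exceeded every wild type library. Fgf11 was 3.33-fold higher on the moderate diet (log2 fold change 1.74 ± 0.35, adjusted p = 0.00597) and 4.47-fold higher on the enriched diet (2.16 ± 0.34, adjusted p = 0.000439). The neighbouring gene Chrnb1 begins 124 bases away and did not pass on either diet (log2 fold change -0.196, adjusted p = 0.716, and 0.331, adjusted p = 0.364).

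Fgf14 stood at 5.28, 3.34, 3.73 and 4.35 CPM in moderate diet wild type, 5.40, 7.17, 4.30 and 6.56 CPM in moderate diet mutants, 3.83, 4.14, 3.24 and 4.39 CPM in enriched diet wild type and 6.43, 7.18, 6.95 and 5.12 CPM in enriched diet mutants. The genotypes were apart on the enriched diet (log2 fold change 0.68 ± 0.18, adjusted p = 0.0107) and overlapped on the moderate diet (0.48 ± 0.18, adjusted p = 0.109). Fgf12 stood at 2.02, 2.08, 1.42 and 2.04 CPM, 2.46, 2.42, 1.89 and 2.52 CPM, 1.92, 1.45, 1.64 and 2.20 CPM, and 2.92, 3.25, 2.33 and 2.47 CPM in the same order of groups. Its enriched diet difference passed (0.62 ± 0.19, adjusted p = 0.0215) and was lost without enriched diet wild type replicate 2 or 3 or mutant replicate 2 (adjusted p up to 0.0766). Fgf13, the intracellular FGF with the highest level per length, went the other way: its group means were 37.9 ± 3.64, 32.9 ± 0.54, 35.0 ± 4.26 and 31.4 ± 2.68 CPM. Its libraries held 34 to 42.8 CPM in moderate diet wild type, all above the moderate diet mutants at 32.2 to 33.5 CPM, and 29.8 to 40.2 against 28.8 to 35.2 CPM on the enriched diet, where they overlapped. Its call with both diets together (log2 fold change -0.19 ± 0.07, adjusted p = 0.0389) was lost in 18 of 26 alternative analyses.

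Of the receptors, Fgfr2 and Fgfr3 were higher in mutants on the enriched diet and Fgfr1, the receptor with the highest level, was not. Fgfr2, the receptor for Fgf10 and related ligands, stood at 107, 114, 111 and 119 CPM in enriched diet wild type and 149, 152, 131 and 132 CPM in enriched diet mutants, without overlap (log2 fold change 0.33 ± 0.08, adjusted p = 0.0051). On the moderate diet it stood at 120.0, 114, 126 and 114 CPM in wild type and 124, 122, 119 and 145 CPM in mutants, which overlapped (0.10, 95% interval -0.04 to 0.25, adjusted p = 0.429). The difference between these 2 effects was 0.22 ± 0.11 and did not pass (adjusted p = 0.501). Fgfr3 held 30.8, 36.0, 46.7 and 43.3 CPM in enriched diet wild type and 56.8, 64.9, 37.1 and 53.1 CPM in enriched diet mutants, with mutant replicate 3 inside the wild type range (0.46 ± 0.16, adjusted p = 0.0414). This call was lost in 8 of 27 alternative analyses. On the moderate diet Fgfr3 held 37.3, 34, 41.9 and 50.7 CPM in wild type and 41.8, 38.0, 45.2 and 48.9 CPM in mutants. Fgfr1 had group means of 214, 210, 213 and 224 CPM in moderate diet wild type, moderate diet mutants, enriched diet wild type and enriched diet mutants, with log2 fold changes of -0.03 (95% interval -0.14 to 0.08) on the moderate diet and 0.09 (-0.02 to 0.21) on the enriched diet, and passed on neither. Fgfr4 stayed between 0.201 and 0.624 CPM in the 16 libraries.

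The Sprouty genes, feedback inhibitors of receptor tyrosine kinase signalling, had higher means in mutants but passed only with the diets averaged. Spry1, on chromosome 3 from 37639947 to 37644598, stood at 44.6, 48.3, 45.2 and 46.1 CPM in moderate diet wild type and 67.2, 63.1, 36.8 and 71.3 CPM in moderate diet mutants. In enriched diet wild type it stood at 47.7, 47.8, 48.7 and 47.9 CPM and in enriched diet mutants at 65.3, 52.8, 54.6 and 69.4 CPM. On the enriched diet all mutants lay above all wild type libraries, and on the moderate diet replicate 3 of the mutants was the lowest of the 8 libraries. The log2 fold change was 0.37 ± 0.15 (adjusted p = 0.146) on the moderate diet, 0.35 ± 0.15 (adjusted p = 0.0888) on the enriched diet and 0.36 ± 0.11 (adjusted p = 0.0155) over both.

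Spry2 behaved alike in its values: 47.9, 53.0, 49.1 and 52.0 CPM in moderate diet wild type against 75.3, 63.1, 45.9 and 72.9 CPM in moderate diet mutants, and 48.5, 52.3, 50.6 and 46.3 CPM against 73.3, 53.1, 58.3 and 65.4 CPM on the enriched diet. The enriched diet mutants lay above their controls, and moderate diet mutant replicate 3 lay below its own (averaged log2 fold change 0.34 ± 0.09, adjusted p = 0.00886). Spry4 stood at 14.4, 13.3, 14.3 and 15.0 CPM against 21.6, 17.7, 13.2 and 23.6 CPM on the moderate diet, and at 11.1, 15.6, 15.7 and 15.4 CPM against 25.2, 17.6, 15.4 and 20.7 CPM on the enriched diet. Its genotypes overlapped on both diets through mutant replicate 3 of each (averaged log2 fold change 0.43 ± 0.13, adjusted p = 0.0138). Summed over the 4 Sprouty genes, the level was 111 ± 3.63 and 112 ± 4.1 CPM in the wild type groups and 143 ± 33.0 and 143 ± 19.8 CPM in the mutant groups (SD, n = 4), on the moderate and enriched diets.

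Without the 3 libraries whose sex-linked counts went against the label, none of the averaged Sprouty calls passed: the log2 fold changes were 0.3 for Spry1 (adjusted p = 0.128), 0.27 for Spry2 (adjusted p = 0.0992) and 0.37 for Spry4 (adjusted p = 0.116). Without moderate diet mutant replicate 3, all 3 passed on both diets, where 14.6% of all genes passed on the moderate and 31.5% on the enriched diet. That library is singled out because it is the lowest mutant in these same 3 genes. Leaving it out therefore raises their moderate diet fold changes, and the resulting calls are no separate support. In moderate diet libraries their log2 fold changes were then 0.55 ± 0.09 for Spry1 (adjusted p = 0.00111), 0.49 ± 0.10 for Spry2 (adjusted p = 0.00419) and 0.57 ± 0.16 for Spry4 (adjusted p = 0.0273). On the enriched diet, where that library enters only through the shared estimates of spread and of the sex term, they were 0.36 (adjusted p = 0.00675), 0.35 (adjusted p = 0.0122) and 0.47 (adjusted p = 0.0306).

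The Spred genes inhibit the Ras step of the same cascade. On the enriched diet 2 of 3 passed as higher in mutants, beside 14.4% of all tested genes. On the moderate diet 0 of 3 did, beside 4.79% of all tested genes. Spred2 held 46.6, 57.6, 56.8 and 66.4 CPM in enriched diet wild type and 66.0, 72, 74.2 and 78.2 CPM in enriched diet mutants (log2 fold change 0.37 ± 0.10, adjusted p = 0.00861), and the lowest mutant fell just under the highest wild type library. On the moderate diet it held 60.7, 60.1, 63.2 and 57.6 CPM and 81.7, 73.9, 63.8 and 76.3 CPM, without overlap but short of the threshold (0.29 ± 0.09, adjusted p = 0.071). Spred3 held 23.9, 24.7, 24.6 and 27.9 CPM against 34.7, 30.6, 28.4 and 45.5 CPM on the enriched diet (0.49 ± 0.15, adjusted p = 0.0212), without overlap, and the call was lost without enriched diet mutant replicate 4 (adjusted p = 0.112). On the moderate diet Spred3 held 27.7, 28.7, 25.9 and 23.6 CPM against 34.2, 29.1, 22.1 and 36.9 CPM, which overlapped. Spred1, the inhibitor with the highest level per length, held 208, 221, 189 and 192 CPM against 234, 247, 208 and 240.0 CPM on the moderate diet and 194, 218, 187 and 176 CPM against 253, 225, 247 and 188 CPM on the enriched diet. It overlapped on both diets and passed over both together (0.20 ± 0.06, adjusted p = 0.0144), but not without the 3 libraries of contradicted sex (adjusted p = 0.121).

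**Figure D3:**
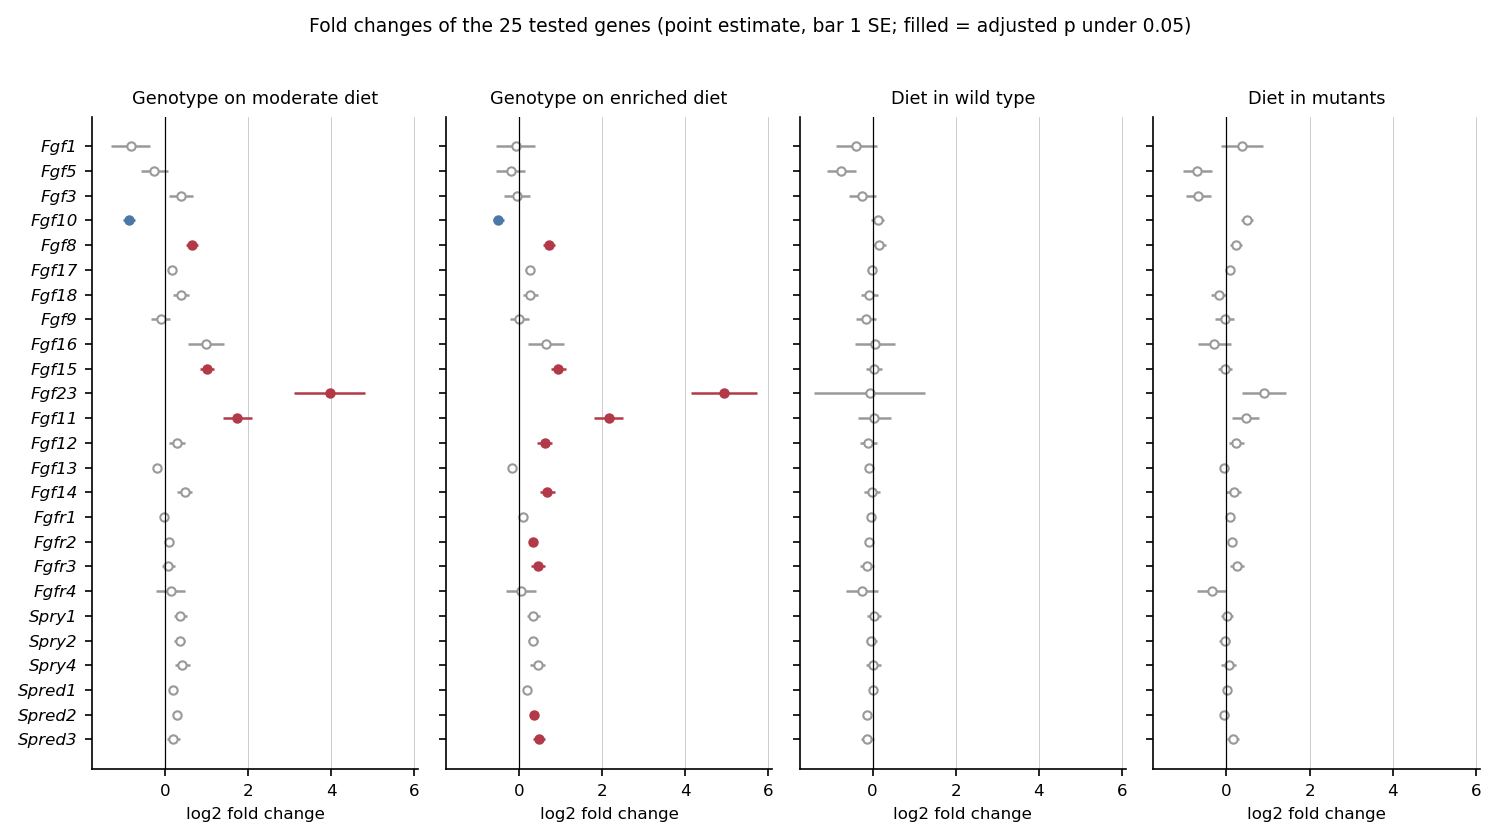
Log2 fold change of the 25 tested members (bars 1 SE) for mutant over wild type on each diet and for enriched over moderate diet in each genotype. Filled points passed an adjusted p of 0.05: 5 in the first panel, 11 in the second and none in the diet panels.

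Moderate diet mutant replicate 3 stood apart from the other mutants in these genes. It was the lowest of the 8 mutants in 9 of the 10 members that were higher in enriched diet mutants, the exception being Fgfr3. Among all 2091 genes higher in enriched diet mutants it was the lowest in 63.0%. For Spry1, Spry2, Spry4 and Spred3 it lay below every moderate diet wild type library. Its Ift88 level of 2.01 CPM was the lowest of the mutants, so it did not carry more Ift88 reads than they did. Without this library 11 members passed on the moderate diet, 10 higher and 1 lower, against 14.6% of 14477 genes, and the added members were Fgf14, Spred1, Spred2, Spry1, Spry2 and Spry4. The library is singled out by its low values in most of these same genes, so the added calls are no separate support. Without the 3 libraries whose sex-linked counts went against the label, which leaves replicates 3 and 4 as the moderate diet mutants, 0 members and 0.726% of 14455 genes passed. In that fit the log2 fold changes of the 5 calls were 0.87 for Fgf15 (adjusted p = 0.115), -0.74 for Fgf10 (0.125), 4.16 for Fgf23 (0.167), 1.66 for Fgf11 (0.186) and 0.59 for Fgf8 (0.307).

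**Figure D4:**
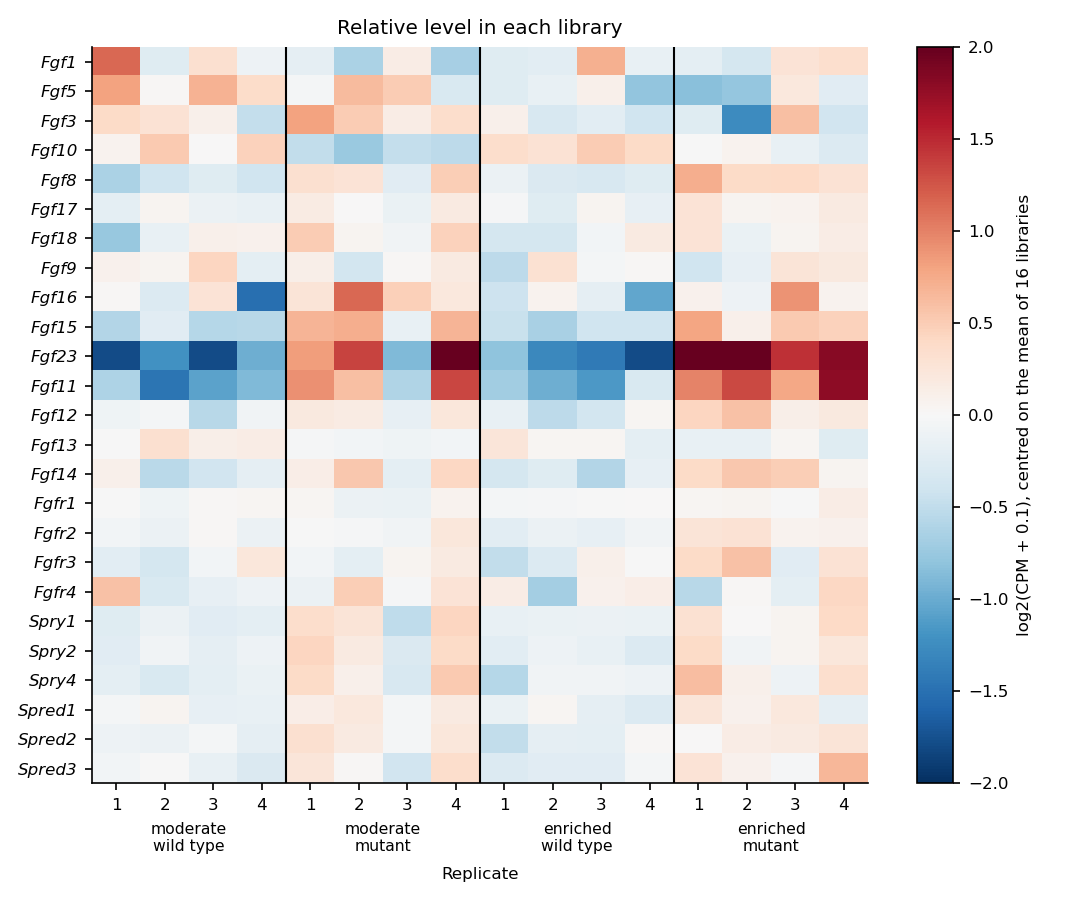
Level of each tested member in each library as log2(CPM + 0.1), centred on its mean over the 16 libraries, with colours limited to the range -2 to 2. Fgf23 and Fgf11 run from blue in wild type to red in mutants, Fgf10 the other way, and the column of moderate diet mutant replicate 3 is blue or pale where the other mutants are red.

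The diets were compared within each genotype, with the same libraries as the genotype comparisons. In both genotypes 0 of 25 members passed by edgeR, as did 0% of all tested genes (354 genes had an unadjusted p under 0.05 in wild type and 1565 in mutants). DESeq2 and limma-voom also called 0 members in these comparisons. In wild type no member was without overlap between the diets (2.52% of all genes were), and in mutants 1 was (3.2% of all genes): Fgf10, at 4.54 to 5.76 CPM on the enriched diet and 3.24 to 3.92 CPM on the moderate diet, a separation in this direction found in 1.46% of all genes (log2 fold change 0.49 ± 0.14, adjusted p = 0.442). In wild type Fgf10 differed by 0.12 (95% interval -0.17 to 0.41). The genotype effect on Fgf10 was weaker on the enriched diet by 0.37 ± 0.20 on the log2 scale, which did not pass (adjusted p = 0.509). Fgf5, a ligand of the early epiblast, had lower means on the enriched diet in both genotypes, with log2 fold changes of -0.76 ± 0.35 in wild type (adjusted p = 0.967) and -0.70 ± 0.34 in mutants (adjusted p = 0.472). For Fgf8 the 95% interval of the diet effect was -0.14 to 0.45 in wild type and -0.05 to 0.50 in mutants. For Fgf15 it was -0.33 to 0.40 and -0.37 to 0.30. The interaction of diet and genotype passed for 0 of 25 members and 0% of all genes, with 1401 genes at an unadjusted p under 0.05.

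Genes that FGF signalling is known to switch on were read from a list of 13 ERK-induced targets, all tested. On the moderate diet 1 rose and none fell, 7.69% of the list beside 7.62% of all genes, and 12 of 13 had a log2 fold change above 0, with a median of 0.28. The gene that rose was Etv4, an ETS transcription factor and standard readout of FGF activity, from 9.41 ± 1.12 to 14.5 ± 2.4 CPM (SD, n = 4; log2 fold change 0.62 ± 0.14, adjusted p = 0.0131), a call lost without moderate diet wild type replicate 3, mutant replicate 1 or mutant replicate 2. On the enriched diet 6 rose and 1 fell, 53.8% of the list beside 31.2% of all genes, with a median of 0.23. Etv4 rose from 9.93 to 14.8 CPM (0.58 ± 0.14, adjusted p = 0.00733), Fos, an immediate early gene, from 0.503 to 1.15 CPM (1.23 ± 0.31), Il17rd, a feedback inhibitor, from 172 to 239 CPM (0.47 ± 0.12) and Egr1, another immediate early gene, from 5.37 to 11.4 CPM (1.11 ± 0.29). Ier2 fell by 0.32 on the log2 scale (adjusted p = 0.01). Dusp6, the ERK phosphatase, and Etv5 did not pass on either diet, with log2 fold changes of 0.26 and 0.23 for Dusp6 and 0.24 and 0.23 for Etv5.

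The share of genes called in 3 further lists of the pathway was at times no higher than the share of all genes. It was 27.3% on the moderate and 54.5% on the enriched diet for co-receptors and binding proteins, 27.3% and 31.8% for heparan sulfate genes and 3.33% and 30% for the ERK cascade, beside 7.62% and 31.2% of all genes. Of 11 tested co-receptors and binding proteins, 2 rose and 1 fell on the moderate diet. Flrt1, a membrane partner of FGF receptors, rose by 0.66 ± 0.14 (adjusted p = 0.0106), Fgfbp3, a carrier of FGFs, by 0.69 ± 0.20 (adjusted p = 0.0398), and Fgfrl1, a receptor without a kinase, fell by 0.26 ± 0.08 (adjusted p = 0.0498). In enriched diet libraries 5 rose, led by Flrt1 (0.76), Ncam1 (0.93), Fgfbp3 (0.79) and Il17rd (0.47), and Fgfrl1 fell again (-0.28, adjusted p = 0.014). The fifth was Cnpy1, whose call was lost without enriched diet mutant replicate 4 (log2 fold change 0.42, edgeR adjusted p = 0.53). Il17rd is also counted among the ERK-induced targets, and Cnpy1 among the boundary genes below. The moderate diet calls of Fgfrl1 and Fgfbp3 were lost in 21 and 11 of 27 alternatives. Of 22 genes of heparan sulfate, 5 rose and 1 fell on the moderate diet and 4 rose and 3 fell on the enriched diet. Sdc4, a syndecan core protein, rose on both (0.98 and 0.91), as did Gpc6, a glypican (0.46 and 0.75), and Hs3st1, a sulfotransferase, fell on both (-1.15 and -0.62). Of 30 adaptors and members of the ERK cascade, 1 rose on the moderate diet, the ERK kinase gene Map2k1 (0.57 ± 0.10, adjusted p = 0.00221). On the enriched diet 4 rose, among them Sos2 (0.50), Map2k1 (0.46) and Plcg1 (0.42), and 5 fell, among them Hras (-0.65) and Map2k2 (-0.58).

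**Figure D5:**
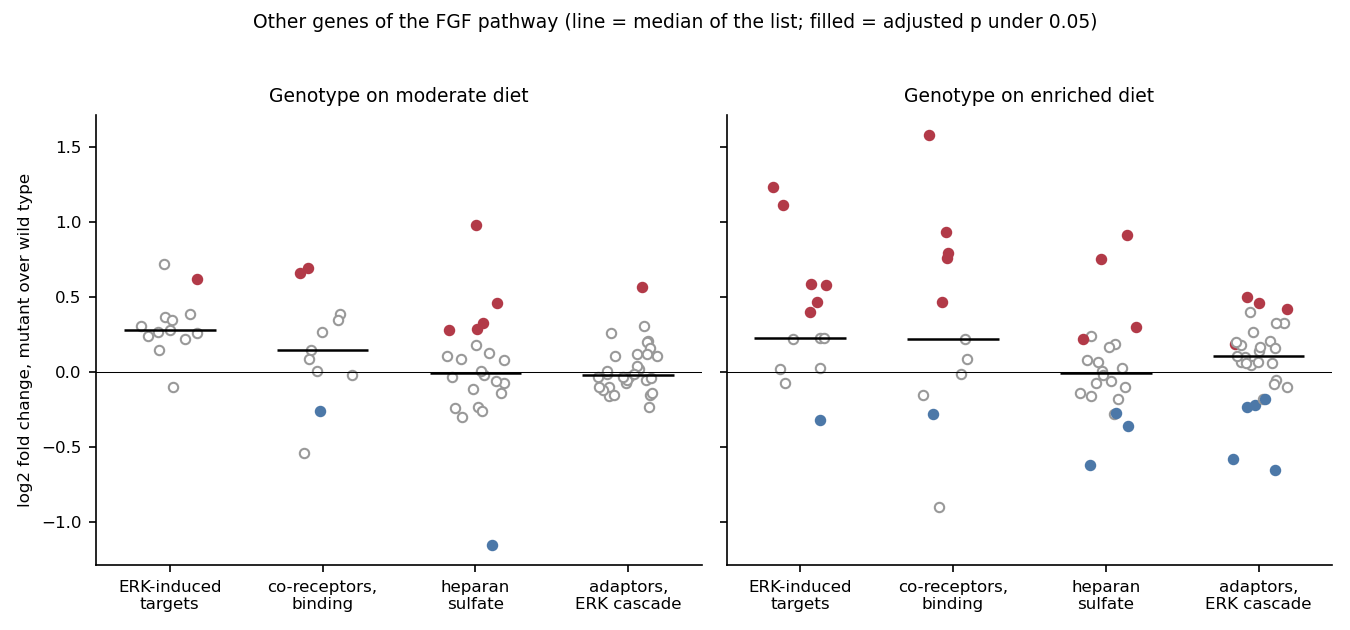
Log2 fold change, mutant over wild type, of each tested gene of 4 lists of the FGF pathway on each diet. Filled points passed an adjusted p of 0.05 and the black line is the median of the list, 0.28 and 0.23 for the ERK-induced targets.

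Regional markers moved beside the ligands, and their part in the results was not tested. Of 9 genes of the boundary between midbrain and hindbrain, where Fgf8, Fgf15 and Fgf17 are made, 1 rose on the moderate diet, Pax2 (log2 fold change 0.74 ± 0.15, adjusted p = 0.00675), and 4 rose on the enriched diet: Pax2 (0.54), Pax5 (0.78), Cnpy1 (1.58) and En2 (0.48). These are 11.1% and 44.4% of the list, where 4.79% and 14.4% of all genes rose, and none fell on either diet. The Cnpy1 value rests on enriched diet mutant replicate 4: the enriched diet mutants ranged from 1.8 to 20.9 CPM around a wild type mean of 2.54 CPM, and without that library the log2 fold change was 0.42 ± 0.47 (adjusted p = 0.53). The enriched diet calls of Pax2, Pax5 and En2 were also lost without that library, so none of the 4 passed in that fit. Over 27 alternatives the call of Pax2 was lost in 1, that of Pax5 in 5 and that of En2 in 12. Their adjusted p rose to 0.0632, 0.134 and 0.143 in these. En2 held 60.0 to 76.5 CPM in moderate diet wild type and 60.0 to 120.0 CPM in moderate diet mutants. Of 10 forebrain genes, 3 fell on both diets: Emx2 (-1.21 and -1.19), Nkx2-1 (-1.84 and -2.43) and Lhx2 (-0.78 and -1.33). No other forebrain gene passed on either diet. These 30% compare with 2.83% and 16.8% of all genes called lower, and with 7.62% and 31.2% called in either direction. Among genes of pharyngeal endoderm and head mesoderm, Foxc2 (-0.85 and -1.19) and Tbx1 fell on both diets. Among the moderate diet calls of pathway and regional genes named here, those of Emx2, Foxc2 and Hs3st1 passed in all 27 alternatives, and the others were lost without the 3 libraries of contradicted sex. Of 5 tested hindbrain genes none passed on either diet. Hoxb1 was below the filter, at 0 in all 4 enriched diet mutants. Its group means were 0.0618 CPM in moderate diet wild type, 0.0215 CPM in moderate diet mutants and 0.217 CPM in enriched diet wild type. The lowest library was at 0 in each of those groups too.

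Markers of other cell types that a dissected head can hold were summed per library. Surface ectoderm (5 genes) summed to 139 to 162 CPM and 164 to 208 CPM in wild type and mutants on the moderate diet and to 139 to 188 and 155 to 195 CPM on the enriched diet. Endothelium (5 genes) summed to 256 to 306, 286 to 332, 261 to 306 and 271 to 294 CPM in the same order. Erythroid genes (6) summed to 1690 to 4440, 868 to 2330, 1030 to 2600 and 508 to 2520 CPM. All 6 had a log2 fold change below 0 in mutants on both diets (medians -1 and -0.58), and 1 of them, Klf1, fell on the enriched diet (-1.79). Cardiac genes (5) stayed at 2.07 to 5.28 CPM. Yolk sac genes (5) reached 11.4, 26.8, 19.7 and 84.3 CPM at most in the 4 groups, and decidual genes (4) at most 10.2 CPM except in the enriched diet mutants, where 1 library reached 192 CPM. All 5 yolk sac genes had log2 fold changes above 0 on both diets (medians 2.1 and 1.2), and none passed. Prl3c1, a decidual marker, was at 0 in all libraries. The part of these cells in the FGF results was not tested, apart from the fits that leave libraries out.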

How the data were processed

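RNA was sequenced from 16 libraries of embryonic head tissue. Per the submitters' processing notes, the authors used FastQC 0.11.5, TopHat2 2.1.1, SAMtools 1.8, HTSeq 0.9.1 and DESeq2 1.22.2 with genome build mm10. Counting mode, strand option and annotation are not given in the sources used here. Per library, the authors deposited 1 table with unnormalized counts for 24421 gene symbols. Its 5 closing summary lines entered neither totals nor tests. Reads on no feature came to 13.7 to 17% and ambiguous reads to 1.2 to 1.39% per library.

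Genes that reached 10 counts in 4 or more libraries (14514, or 59.4%) were fitted with the quasi-likelihood model of edgeR 4.0.16 in R 4.3.3, with trimmed means of M values, a coefficient per group over all 16 libraries and the labelled sex as covariate. The Benjamini-Hochberg adjustment ran over all 14514 genes, with a threshold of 0.05, and members were read from that table. The standard error was taken as the log2 fold change over the root of F, and 95% intervals span 1.96 standard errors on either side. The script was tested on simulated data. Alternatives used median-of-ratios scaling, DESeq2 1.42.0, limma-voom (limma 3.58.1), other filters, other treatments of sex, a replicate block, the compared groups alone, and left-out libraries.

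Positions and exon lengths came from GENCODE vM21 (mm10), which matched 32 of 33 members by symbol, and promoter windows from RefSeq (GRCm38.p6), which matched 24. The annotation behind the counts may differ, so levels per kilobase are approximate. The members, gene lists and tests were chosen with earlier results of these data known. Every member is accounted for, by values per library, ranges, group means or counts. Of other lists, at most 4 genes in each direction are named, by smallest p, with Cnpy1 added to the co-receptors and binding proteins. Some genes of the pharyngeal and head mesoderm list are not reported here.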

Additional observations from a re-analysis of the deposited data

Results flagged for a closer look

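In 9 of 100 sets of 4 libraries checked, 1 library lay far from the other 3, with a gap past Dixon's critical share of the whole range. Chance alone gives about 1 in 20. Moderate diet mutant replicate 3 was low for Fgf15 (51.2 CPM, the others 90.9 to 93.8) and for Fgf12 (1.89 CPM, the others 2.42 to 2.52). Moderate diet wild type replicate 2, whose Ift88 level was also the lowest of the wild type, was high for Fgf15 (48.2 CPM, the others 37.5 to 38.4), and moderate diet wild type replicate 3 was low for Fgf12 (1.42 CPM, the others 2.02 to 2.08). Enriched diet mutant replicate 3 was high for Fgf16 (1.22 CPM, the others 0.563 to 0.657). In enriched diet wild type, replicate 1 was low for Spry4 (11.1 CPM, the others 15.4 to 15.7), replicate 2 low for Fgfr4 (0.201 CPM, the others 0.409 to 0.431) and replicate 3 high for Fgf1 (0.468 CPM, the others 0.192 to 0.214) and for Spry1 (48.7 CPM, the others 47.7 to 47.9).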

How the results depend on the processing

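On the moderate diet 5 members passed, and 5 to 11 when each of the 16 libraries was left out in turn, with 11 only without moderate diet mutant replicate 3. Of all genes 1106 passed, and 538 to 2107 with a library left out. Without the 3 libraries whose sex-linked counts contradict the label 0 members passed, beside 0.726% of all genes. Another alternative, chosen after seeing the data, left out 3 libraries that stand apart. These were moderate diet mutant replicate 3, moderate diet wild type replicate 2 and enriched diet mutant replicate 3. In that fit 10 members passed, beside 11.3% of all genes. On the enriched diet 11 members passed, 9 to 16 with a library left out, 15 with DESeq2 and 16 at an adjusted p of 0.1. Of all genes 4524, 3023 to 4872, 4851 and 5889 passed, in the same order. The averaged genotype effect gave 17 members, 14 to 17 with a library left out and 8 without the 3 libraries of contradicted sex. It gave 5202, 4177 to 5563 and 2964 of all genes, in the same order. The comparisons of diet and the interaction gave 0 members under every alternative run. No call reversed. Of the 11 enriched diet calls, 7 passed in all 27 alternatives. Deviations from the group means correlated at -0.291 to 0.505 between samples with the same replicate number (24 pairs, median 0.0314). Between samples with other numbers they correlated at -0.444 to 0.404 (72 pairs, median -0.0424). The labels state no pairing, and correlations this weak and overlapping cannot exclude it. With the replicate block 5, 12 and 17 members passed for the moderate diet, the enriched diet and the average, and 0 for diet and interaction. Of all genes 1453, 4979 and 5645 passed in those genotype comparisons. Fgf23 could not be tested on the moderate diet in 1 alternative, and with no filter the averaged effect on Fgf4 passed (log2 fold change 1.6, adjusted p = 0.0231). Depth limits Fgf21, Fgf4 and the other members below the filter, where fewer than 15 counts per library were seen. The alternatives for pathway and regional genes were chosen after seeing the data.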
